A study of Homo sapiens with 3 samples.

Results

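Transcript levels of 42 genes that license replication origins, unwind DNA and copy it at the fork were examined in MCF10A cells, human breast epithelial cells that grow without limit but do not form tumours. The genes were chosen by symbol, as the subunits of the MCM2-7 helicase, the origin recognition complex (ORC), GINS, the clamp loader RFC, the replicative polymerases and RPA, with their loading factors and partners. They were found by Ensembl identifier and GENCODE annotation among the 62754 genes of the deposited table, and none was chosen by its measured level. All 3 libraries came from 1 group of cells, which carried an empty Retro-X Tet-One vector without a gene insert, were selected with puromycin, received neither doxycycline nor another treatment and belonged to batch 1. Total RNA of growing cells was depleted of ribosomal RNA and sequenced, for a study that needed to know which enzymes of a metabolic model were expressed. Since 1 condition was measured, no group could be compared with another, and genes were compared with each other within each library. Nothing states that the 3 replicates came from separate cultures, so the spread between them may be technical. In bulk RNA, the share of cells in S phase and the amount of RNA per cell cannot be told apart.

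Before a cell copies its DNA, ORC marks origins, and CDC6 and CDT1 load the ring of MCM2 to MCM7 around the DNA, a step called licensing that geminin (GMNN) blocks by binding CDT1. At S phase, CDC45 and GINS join the ring to form the active helicase, polymerase alpha-primase starts each strand, and polymerases epsilon and delta extend the leading and lagging strands. RFC loads the sliding clamp PCNA that holds polymerases on DNA, RPA covers single-stranded DNA, and FEN1 and LIG1 trim and join the Okazaki fragments. Many of these genes are textbook targets of the E2F transcription factors, which act at the entry into S phase.

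With the gene lengths of the annotation, the values of the 62700 annotated genes were whole numbers of reads within 0.01 read, which gave 15273329, 15446347 and 11166546 reads on annotated genes in replicates 1, 2 and 3. The 42 genes held 176203 reads in all, and the shallowest, POLA2 in replicate 3, held 148. As a check of the label, all 4 markers of basal breast epithelium were above 1 TPM (the reads of a gene per transcript length, scaled to a total of 1000000 over all genes), from TP63 at 49.8 TPM to KRT5 at 6612 TPM. All 4 general epithelial markers were above 1 TPM as well, from EPCAM at 14.6 TPM to KRT18 at 413 TPM, and the luminal hormone receptors ESR1 and PGR were at 0.0345 and 0.00485 TPM. None of 3 leukocyte markers reached 1 TPM, against 1 of 3 endothelial markers, PECAM1 at 1.77 TPM, and 2 of 4 fibroblast markers, the higher of them DCN at 9.05 TPM. CD3E, CDH5, COL1A2 and PDGFRA had 0 reads in every replicate.

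The promoter sequences were read first, because E2F sites are the feature that these genes are best known to share. RefSeq promoters on GRCh38.p14, from 250 bases before to 50 bases after the start, were matched for 37 of the 42 genes, all but MCM4, MCM5, GINS4, RPA2 and RPA3. The words TTTCCCGC, TTTCGCGC, TTTGCCGC and TTTGGCGC, which together spell the E2F consensus, were searched on both strands. At least 1 of them was present in 18 of the 37 promoters (48.6%), against 703 of all 15843 promoters in the table (4.44%) and 5.77% of the 9344 promoters of protein-coding genes at or above 1 TPM. The 18 genes were MCM2, MCM3, MCM6, MCM7, MCM8, ORC3, CDC6, CDT1, GINS1, GINS2, GINS3, PCNA, RFC3, POLA1, POLA2, POLE, POLE2 and LIG1. Stretches of 40 bases are shown for 6 of them that cover helicase subunits, a loading factor, the clamp and polymerases. They include the most and the least abundant transcripts of the 42 in the deposited TPM, PCNA and POLA2. Capitals mark the E2F words, and in MCM6 a forward word overlaps a reverse complement, TTTGGCGC with GCGCGAAA.
MCM6 promoter, chr2:135876510-135876549, minus strand: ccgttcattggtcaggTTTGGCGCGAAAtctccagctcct
MCM7 promoter, chr7:100101561-100101600, minus strand: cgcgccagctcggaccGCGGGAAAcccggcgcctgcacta
CDT1 promoter, chr16:88803738-88803777, plus strand: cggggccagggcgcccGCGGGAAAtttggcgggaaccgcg
PCNA promoter, chr20:5126658-5126697, minus strand: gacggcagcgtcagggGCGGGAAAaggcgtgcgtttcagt
POLE promoter, chr12:132687343-132687382, minus strand: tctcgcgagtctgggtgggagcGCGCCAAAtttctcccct
POLA2 promoter, chr11:65261893-65261932, plus strand: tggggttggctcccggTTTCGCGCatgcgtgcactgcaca
The first letter of the marked word lay 90 bases before the RefSeq start in MCM6, 187 in MCM7, 35 in CDT1, 59 in PCNA, 18 in POLE and 53 in POLA2. MCM6 held the same 12-letter pair a further time, 152 bases before its start. MCM7 held another word, TTTCGCGC, 9 bases before its start.

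The CCAAT box, the word bound by NF-Y, was present in 22 of the 37 promoters (59.5%). It was in 36.4% of all promoters and 37.5% of those of protein-coding genes at or above 1 TPM. TATAAA was present in 2 of the 37 (5.41%), those of MCM9 and GINS3. Its share was 9.63% of all promoters and 5.49% of those of protein-coding genes at or above 1 TPM. TTTGAA, the core of the cell cycle homology element, was in 0 of the 37. For TTTGAA the shares were 12.1% of all promoters and 9.64% of those of protein-coding genes at or above 1 TPM. A match describes letters in this window and is not a bound site. Among these 37 genes, the median transcript level was not higher with an E2F word, and the difference was not tested. The 18 genes with a word had a median of 56.8 TPM (10.3 to 542 TPM), and the 19 without a word had a median of 63.3 TPM.

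All 42 genes were expressed by the cutoff of 1 TPM that the study's methods used, both by the mean and in each of the 3 replicates. Among 20046 protein-coding genes, the mean passed this cutoff for 56.7% and every replicate did for 55.2%. The median of the 42 means was 60.0 TPM. Among the 11360 protein-coding genes at or above 1 TPM, the lower quartile, median and upper quartile were 9.29, 24.9 and 58.0 TPM. Thus 22 of the replication genes stood above the upper quartile, 16 between the median and the upper quartile, and 4 below the median. The 4 were POLA2, MCM8, MCM9 and ORC4. Together the 42 genes made up 0.411%, 0.397% and 0.343% of all TPM in replicates 1, 2 and 3, and PCNA alone gave 14.1% of their summed mean.

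**Figure D1:**
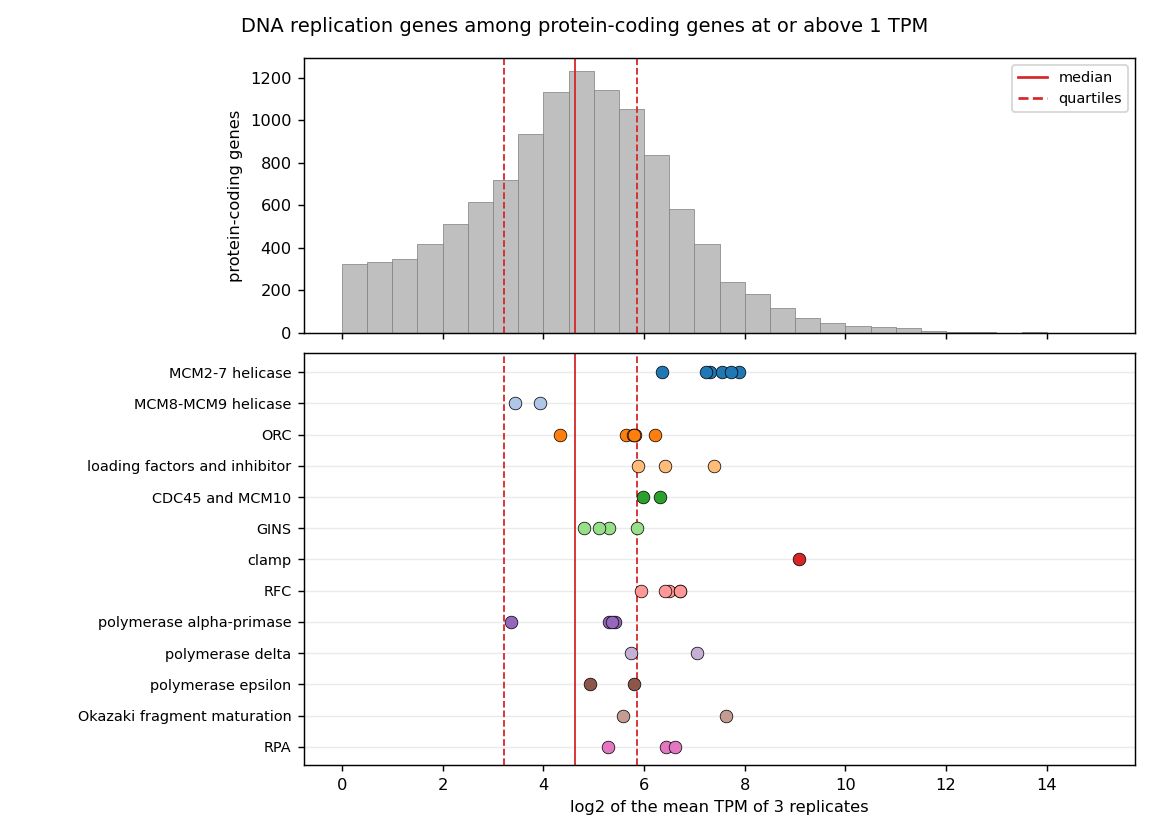
Upper panel, number of protein-coding genes at or above 1 TPM (vertical axis) by log2 of the mean TPM of 3 replicates (horizontal axis). Lower panel, the mean of each of the 42 replication genes on the same axis, 1 point per gene, in rows by role, with red lines at the median (24.9 TPM) and the quartiles (9.29 and 58.0 TPM). All MCM2-7 and RFC points lie right of the upper quartile, and both MCM8-MCM9 points lie left of the median.

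The 6 subunits of the replicative helicase were all among the abundant transcripts, from 81.7 to 237 TPM. MCM3 (ENSG00000112118, chr6:52264014-52284881, minus strand) was the highest, with 257, 247 and 206 TPM in replicates 1, 2 and 3, a mean of 237 ± 26.7 TPM (SD, n = 3). MCM5 (ENSG00000100297, chr22:35400134-35425431, plus strand) was the lowest, with 86.7, 91.0 and 67.4 TPM, a mean of 81.7 ± 12.6 TPM. The levels of the helicase's highest and lowest subunits did not overlap. MCM3 was 2.96, 2.71 and 3.06 times MCM5 within the 3 libraries, and the ratio of their means was 2.90-fold, 1.53 ± 0.09 on the log2 scale.

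Between them, MCM7 had 224, 224 and 184 TPM (mean 211 TPM), and MCM4 had 203, 191 and 167 TPM (mean 187 TPM). MCM2 had 169, 170 and 136 TPM (mean 158 TPM). MCM6 had 163, 143 and 144 TPM (mean 150 TPM). The assembled ring holds 1 copy of each of these ATPases. MCM2 and MCM6 could not be ordered: MCM2 was higher in 2 of the 3 replicates, and their mean log2 ratio of 0.07 was within its SD of 0.17. The other neighbours kept 1 order in every replicate by more than the SD, among them MCM6 above MCM5, 1.85-fold.

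The position of MCM5 as the lowest subunit held under each length by which reads were divided, and the highest subunit did not. The deposited TPM corresponds to the longest annotated transcript of each gene. With GENCODE's canonical transcript in its place, MCM7 was the highest at 214 TPM, MCM4 was next at 204 TPM and MCM3 was at 201 TPM. The ratio of the highest to MCM5 was then 2.42-fold. With the union of all exons it was 4.01-fold, with MCM3 highest again. MCM2 overlapped a gene on the opposite strand over 32.4% of its bases, and whether reads were counted by strand is not stated in the sources used here.

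**Figure D2:**
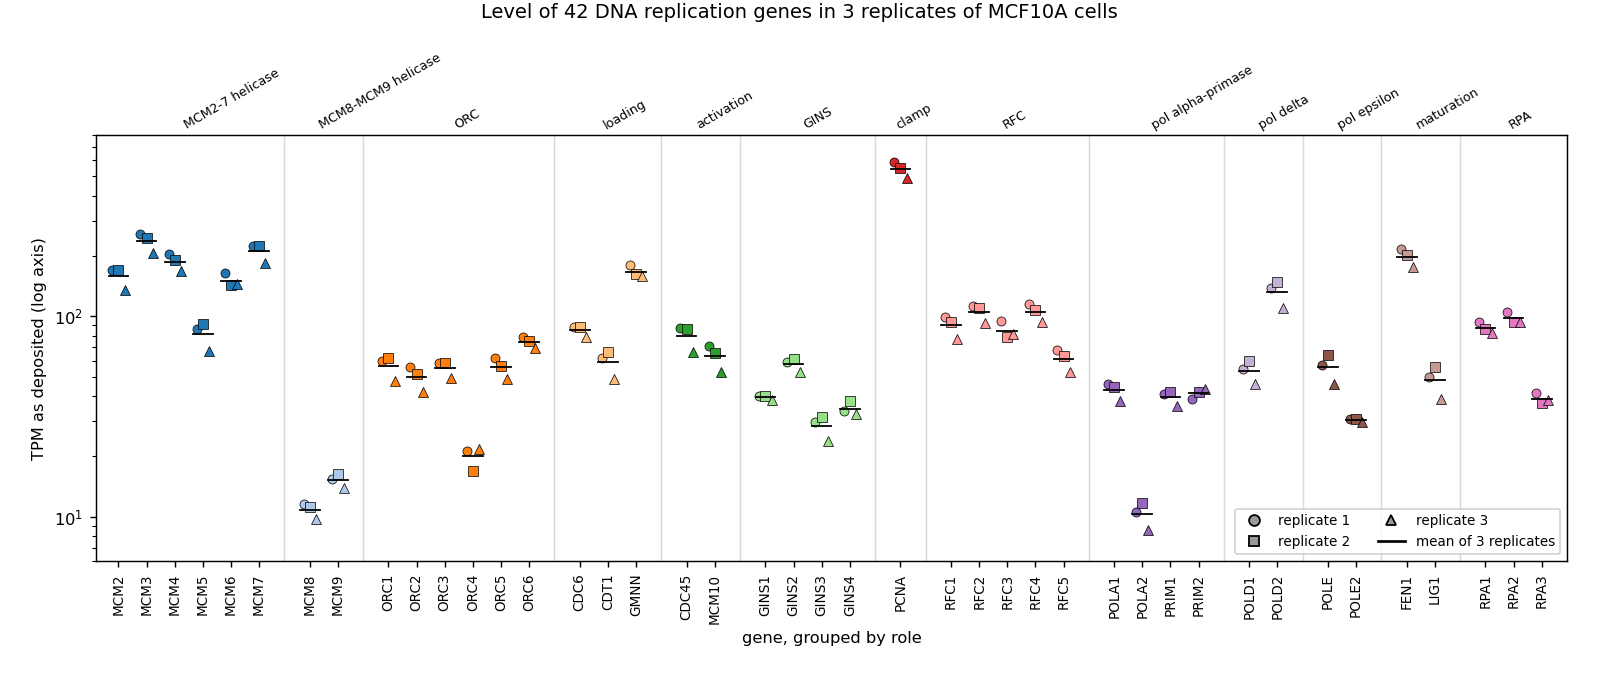
TPM as deposited (vertical log axis) of the 42 genes (horizontal axis) grouped by role, with 1 symbol for each of the 3 replicates and a line at their mean. PCNA stands above all others at 542 TPM, POLA2 is the lowest at 10.3 TPM, and MCM5, ORC4 and POLA2 lie below the other subunits of their complexes.

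The related helicase of MCM8 and MCM9, which acts in homologous recombination rather than in licensing, was expressed far below MCM2-7. MCM8 had 11.5, 11.1 and 9.74 TPM and MCM9 had 15.5, 16.3 and 13.8 TPM, with means of 10.8 and 15.2 TPM. The geometric mean of MCM2 to MCM7 was 12.6-fold that of the pair (3.66 ± 0.05 on the log2 scale), and 9.81-fold to 12.0-fold under the other lengths. MCM9 exceeded MCM8 1.41-fold in the deposited TPM. With the union of exons MCM8 was higher, 1.13-fold, so the order within this pair depended on the gene length. MCM8 shares 33.5% of its bases with an overlapping gene on the same strand, ENSG00000286235, that had 0 reads.

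ORC, the 6-subunit origin mark, had 4 subunits close together, 1 above and 1 below them. ORC1, the subunit whose protein is degraded after licensing in human cells, had 59.8, 61.9 and 47.6 TPM (mean 56.4 TPM). ORC5 had a mean of 55.6 TPM, ORC3 of 55.3 TPM and ORC2 of 49.8 TPM. Neither ORC1 against ORC5 nor ORC5 against ORC3 kept 1 order over the replicates. ORC6, the subunit most loosely bound to the others, was the highest in each replicate with 78.3, 74.9 and 69.6 TPM (mean 74.3 TPM). ORC4 (ENSG00000115947, chr2:147930396-148021604, minus strand), an ATPase-fold subunit of the ring, was the lowest with 21.3, 16.9 and 21.8 TPM (mean 20.02 ± 2.69 TPM). It lay below all other ORC subunits in every library. ORC6 was 3.71-fold ORC4 (1.89 ± 0.24 on the log2 scale), and ORC2, the next above ORC4, was 2.49-fold. With the union of exons ORC1 was the highest subunit, and ORC4 was again the lowest, 3.75-fold below it.

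The transcript of the licensing inhibitor was more abundant than that of the factor that it binds. GMNN had 179, 163 and 158 TPM (mean 167 ± 11.0 TPM), and CDT1 had 62.0, 66.2 and 48.4 TPM (mean 58.9 ± 9.31 TPM). GMNN exceeded CDT1 in each library, 2.86-fold (1.52 ± 0.20 on the log2 scale), and 1.51-fold when reads were divided by the union of exons. CDC6, the ATPase that brings the ring to ORC with CDT1, had 88.7, 88.1 and 79.0 TPM (mean 85.3 TPM). It was higher than CDT1 in 3 of 3 replicates, 1.46-fold, and higher than its relative ORC1, 1.52-fold.

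The partners that turn the loaded ring into the active helicase were expressed below the geometric mean of the ring's subunits. CDC45 had 87.0, 86.1 and 66.2 TPM (mean 79.8 TPM), close to MCM5 and below the other 5 helicase subunits. MCM10, which is needed for the activated helicase to leave the origin, had 71.4, 65.7 and 53.0 TPM (mean 63.3 TPM). CDC45 was above MCM5 in replicate 1, at 87.0 against 86.7 TPM. With the union of exons, CDC45 and MCM10 had means of 73.5 and 71.0 TPM, above MCM5 at 69.0 TPM. The 4 subunits of GINS ranged from 28.2 to 57.8 TPM. GINS2 was the highest with 59.2, 61.3 and 52.9 TPM, and GINS3 the lowest with 29.5, 31.3 and 23.8 TPM, a 2.05-fold ratio. GINS1 had a mean of 39.4 TPM and varied least of the 42 genes in TPM, with a coefficient of variation of 2.17%. On median-of-ratios scaled reads, which take out the lower TPM of most genes in replicate 3, GINS1 had 853, 852 and 971 reads and differed between replicates (adjusted chi-square p = 0.0308). GINS4 had a mean of 34.6 TPM. With the canonical transcripts, GINS4 was the lowest subunit and the range narrowed to 1.63-fold. Opposite-strand genes overlapped 33.4% of GINS4 and 14.4% of GINS3. The geometric mean of MCM2 to MCM7 was 4.19-fold that of GINS (2.07 ± 0.08 on the log2 scale) and 2.04-fold CDC45. CDC45 in turn was 2.06-fold the mean of GINS, although all 3 parts join in equal numbers in the helicase.

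PCNA (ENSG00000132646, chr20:5114953-5126626, minus strand), the sliding clamp and a homotrimer, was the most abundant transcript of the 42 in every replicate. It had 587, 549 and 492 TPM, a mean of 542 ± 47.7 TPM, and stood above 98.2% of the protein-coding genes at or above 1 TPM. Its lowest replicate was above the highest replicate of MCM3, the next gene, and the ratio of PCNA to MCM3 was 2.30-fold. The loader RFC pairs 1 large subunit with 4 small ones. RFC1, the large subunit, had 99.2, 93.5 and 76.9 TPM (mean 89.9 TPM). The small subunits had means of 105 TPM for RFC4, 105 TPM for RFC2, 84.8 TPM for RFC3 and 61.1 TPM for RFC5.

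RFC had the narrowest range of the complexes with 4 or more subunits, 1.72-fold from RFC4 to RFC5 (0.79 on the log2 scale) and 1.57-fold with the canonical transcripts. RFC4 and RFC2 could not be ordered over the replicates, nor could RFC1 and RFC3. RFC1 was 1.03-fold the geometric mean of RFC2 to RFC5, a log2 ratio of 0.045 ± 0.06 that turned to -0.03 with the canonical transcripts. PCNA was 6.21-fold the geometric mean of RFC, and this ratio varied little between libraries (2.63 ± 0.03 on the log2 scale). RFC was 1.81-fold ORC, a complex with related ATPase subunits.

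Polymerase alpha-primase lays down the RNA-DNA primer at each start. Its catalytic subunit POLA1 had 46.1, 44.4 and 37.6 TPM (mean 42.7 TPM). The primase subunits PRIM2 and PRIM1 had means of 41.2 and 39.5 TPM. Neither POLA1 and PRIM2 nor PRIM2 and PRIM1 could be ordered, so the means of 3 of the 4 subunits lay from 39.5 to 42.7 TPM without a stable order. The exception was POLA2 (ENSG00000014138, chr11:65261913-65305959, plus strand), the accessory subunit whose promoter stretch is printed above. It had 10.6, 11.6 and 8.57 TPM (mean 10.3 ± 1.56 TPM), from 215, 243 and 148 reads, and was the lowest of the 42 genes by the mean, although it was above MCM8 in replicate 2. This rank depended on the gene length, since with the canonical transcripts MCM8 was lower, at 8.80 against 9.12 TPM.

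The exact 95% Poisson intervals of POLA2, which cover counting error only, were 9.22 to 12.1, 10.2 to 13.2 and 7.24 to 10.1 TPM. POLA1 was 4.16-fold POLA2 by the means. POLA2 also has the largest share of bases in common with another gene, 55.8% with ENSG00000285816, a protein-coding gene on the same strand that spans it and had 6, 7 and 0 reads. How reads in shared bases were assigned is not stated, and their part in the low level of POLA2 was not tested. Dividing its reads by the unshared canonical bases alone gave 20.6 TPM, again the lowest of the 4 subunits but above MCM8, ORC4 and MCM9 on the same measure (13.2, 16.8 and 18.1 TPM). PRIM1 shares 28.9% of its bases, with ENSG00000285625 and NACA, and on unshared bases it rose to 59.4 TPM. The log2 ratio of PRIM1 to PRIM2 was -0.06 ± 0.19 and turned positive under each other length and without replicate 3.

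The catalytic subunits of the leading- and lagging-strand polymerases had near-equal levels. POLE had 57.1, 64.3 and 46.0 TPM (mean 55.8 TPM), and POLD1 had 54.7, 59.8 and 45.7 TPM (mean 53.4 TPM). POLE was 1.04-fold POLD1 and was higher in 3 of 3 replicates, but by 0.06 ± 0.05 on the log2 scale. The ratio turned to -0.04 with the union of exons and to -0.09 without shared bases, of which POLD1 has 12.4%. POLD1 and POLE were 1.25-fold and 1.30-fold POLA1.

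The accessory subunits were less even. POLD2, the second subunit of polymerase delta, had 138, 148 and 110 TPM (mean 132 TPM), which was 2.47-fold POLD1. This ratio was 5.36-fold with the canonical transcripts, since the longest of the 68 annotated POLD2 transcripts is 2.32 times as long as the canonical one. With the union of exons it was 1.55-fold. The union has 8005 bases in POLD2, against 3735 in its longest transcript, and 4934 in POLD1, against 3703. POLD3 had 49.5, 46.3 and 42.05 TPM. POLD4, the smallest subunit, had 0.530, 0.928 and 0.996 TPM from 5, 9 and 8 reads, and was below 1 TPM in each replicate. The upper 95% limits of the POLD4 values were 1.24, 1.76 and 1.96 TPM, so a level above the cutoff is not excluded at this depth. POLD4 shares 38.4% of its bases with ENSG00000256514.

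POLE2, the second subunit of polymerase epsilon, had 30.7, 30.8 and 29.5 TPM (mean 30.3 TPM), and POLE was 1.84-fold POLE2. POLE3 and POLE4, the histone-fold subunits of polymerase epsilon, were higher than POLE. POLE3 had 189, 209 and 170 TPM, 3.42-fold POLE, and POLE4 had 82.8, 86.1 and 70.2 TPM, 1.44-fold POLE. POLE3 also serves in a chromatin remodelling complex.

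**Figure D3:**
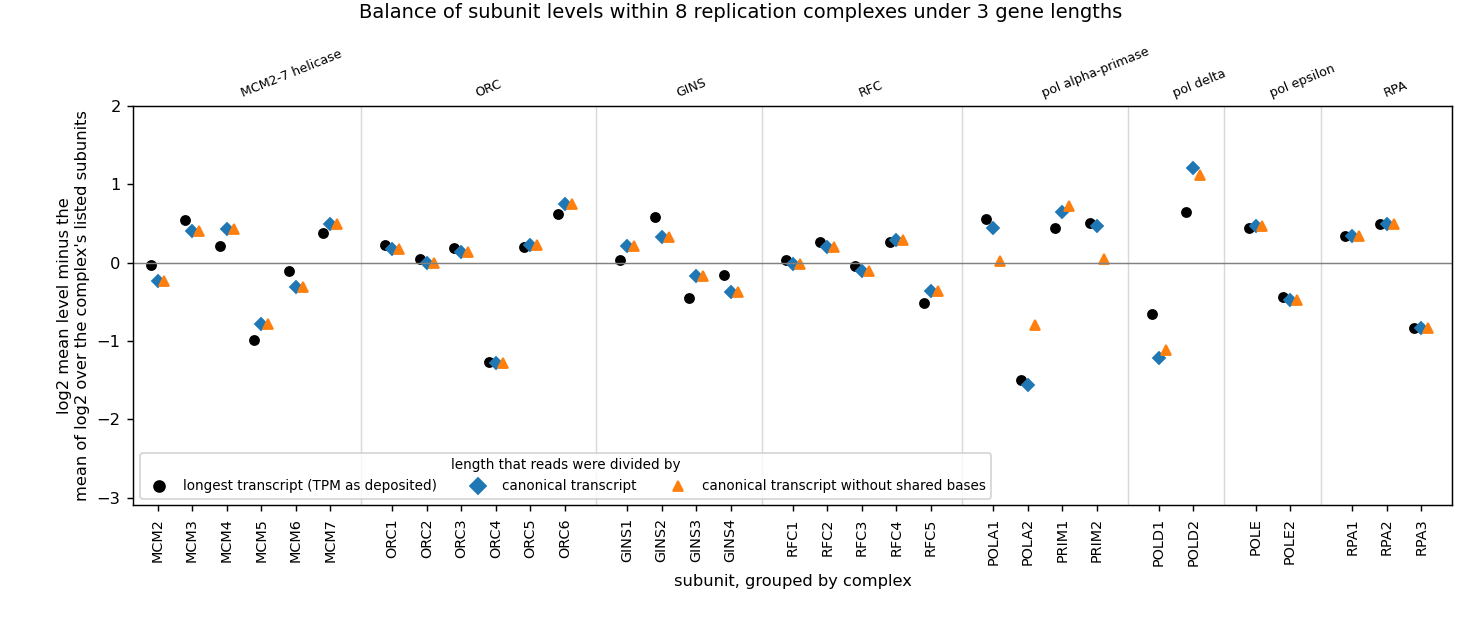
Log2 of the mean level of each subunit minus the mean of the log2 levels over the listed subunits of its complex (vertical axis), for 8 complexes (horizontal axis). Circles divide reads by the longest transcript, as in the deposited TPM, diamonds by the canonical transcript and triangles by its unshared bases. MCM5 and ORC4 are the lowest of their complexes under all 3 lengths, POLA2 is the lowest as well but moves up without shared bases, and the distance of POLD2 from POLD1 widens with the canonical transcripts.

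The enzymes of Okazaki fragment maturation lay far apart. FEN1, the flap nuclease, had 216, 202 and 175 TPM (mean 198 ± 20.6 TPM), in the range of MCM4 and MCM7. LIG1, the ligase that seals the nick, had 49.6, 56.1 and 38.5 TPM (mean 48.0 ± 8.92 TPM). FEN1 was 4.15-fold LIG1 in the deposited TPM, 3.03-fold with the canonical transcripts and 10.1-fold with the union of exons. Both proteins bind PCNA, which was 2.75-fold FEN1.

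RPA coats single-stranded DNA as a trimer. RPA2 had 105, 93.9 and 93.6 TPM (mean 97.6 TPM), and RPA1, the large DNA-binding subunit, had 93.1, 86.0 and 82.0 TPM (mean 87.1 TPM). RPA3, the smallest subunit, was lower with 41.4, 36.8 and 38.02 TPM (mean 38.7 TPM). RPA2 was 2.52-fold RPA3, and the 3 subunits kept 1 order in every replicate in the deposited TPM. With the union of exons RPA2 was 3.22-fold RPA3, and RPA2 was above RPA1 in only 2 of the 3 replicates.

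Over the 9 complexes, 18 of the 25 pairs of neighbours in the deposited TPM had the same order in every replicate by more than the SD. The 7 others are the pairs named above as not ordered in the deposited TPM. With the union of exons 21 of 25 pairs were ordered, but the orders differed, as in MCM2-7, where MCM6 came next after MCM3. A gene's length is the same in every library, so these counts do not cover the choice of length. Neighbours were set by the mean log2 level over the same 3 replicates. These counts thus describe how far the libraries agree and do not test the order. An exact two-sided sign-flip permutation test over 3 replicates cannot go below p = 0.25, so none of these orders could reach 0.05. The ratio of the highest to the lowest subunit by mean TPM ran from 1.41-fold in the MCM8-MCM9 pair to 4.16-fold in polymerase alpha-primase.

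To set the helicase beside a complex outside replication whose subunits are also needed in equal numbers, the 14 subunits of the 20S proteasome core were used. The SD of log2 TPM over subunits was 0.55 for MCM2-7 and 2.74 for the proteasome core, and it was lower for MCM2-7 in 3 of 3 replicates (exact sign-flip permutation p = 0.25, the smallest possible). Most of this gap came with PSMA1, PSMA2 and PSMA6, of which 50% or more of the bases are shared with another gene. Without them, a choice made after the values were seen, the SD over the other 11 subunits was 0.83, and the difference narrowed from -2.20 to -0.28 on the log2 scale.

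Of 43 further replication genes, 40 had a mean of at least 1 TPM and 38 reached it in every replicate, with a median of 44.7 TPM. The 8 kinases and factors that fire origins ranged from DBF4B, an activator of CDC7, at 20.3 TPM to RECQL4, a helicase, at 62.4 TPM. The 4 genes of fork protection and coupling ranged from WDHD1 at 39.6 TPM to TIMELESS at 60.2 TPM. Among 5 genes that destroy CDT1, the lowest was CUL4B, a cullin, at 9.83 TPM and the highest DDB1, its adaptor, at 191 TPM. MCMBP, which binds free MCM subunits, had 149 TPM, and LRWD1, which binds ORC, had 11.7 TPM. The 6 genes of replication-coupled chromatin assembly ranged from CHAF1B at 28.6 TPM to SUPT16H at 298 TPM.

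Primer removal and topology held both TOP2A, a topoisomerase and the highest of the 43 at 322 TPM, and RNASEH2A, a subunit of the nuclease for RNA in DNA, at 1.15 TPM. Another gene on that strand shares 94.1% of the bases of RNASEH2A. Of the 5 alternative clamp loader genes, DSCC1 was the highest at 46.1 TPM and CHTF8 the lowest at 1.11 TPM, with 96.0% of its bases shared. POLD4 was the lowest of the polymerase subunits. The other genes with a mean below 1 TPM were a pair of paralogs. GMNC, a geminin relative of multiciliated cells, had 1, 0 and 0 reads, and the 0 reads in replicates 2 and 3 allow up to 0.152 and 0.184 TPM. RPA4, an RPA2 paralog, had 4, 10 and 3 reads and a mean of 0.700 TPM, and was above 1 TPM in replicate 2, at 1.18 TPM. The third gene of that group, MCIDAS, had 8.53 TPM.

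Between replicates, the 42 genes had a spread near that of other genes. Their median coefficient of variation was 10.4%, from GINS1 at 2.17% to LIG1 at 18.6%, and that of protein-coding genes at or above 10 TPM was 11.1%. In TPM as deposited, 37 of the 42 genes had their lowest value in replicate 3, as did 76.0% of the 12359 protein-coding genes with at least 15 reads. When the libraries were instead scaled by the median of ratios over protein-coding genes, 18 of the 42 were lowest in replicate 3, beside 35.3% of protein-coding genes. The lower TPM of replicate 3 was thus shared by most protein-coding genes.

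Reads of 17 of the 42 genes (40.5%) differed between the scaled replicates beyond counting error (chi-square test, Benjamini-Hochberg adjusted p under 0.05). The same test called 34.5% of protein-coding genes with at least 15 reads and 43.5% of the 8364 at or above 10 TPM. ORC4 differed most, with 679, 539 and 822 scaled reads in replicates 1, 2 and 3 (adjusted chi-square p = 1.15e-11). MCM6 followed, with 2904, 2542 and 3036 scaled reads (adjusted chi-square p = 1.24e-09). PCNA, with 3774, 3527 and 3742 scaled reads, was called as well (adjusted chi-square p = 0.0179). This test compares libraries with counting error and not conditions, and its count rested on which libraries were in it. Without replicate 2 it called 5 of the 42 genes (10.2% of protein-coding genes), and without replicate 3 it called 9 (22.5%).

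The differences between libraries went with GC content. Replicate 3 over the mean of the other two, on scaled reads, ranged from -0.22 on the log2 scale for LIG1 to 0.43 for ORC4, the gene with the lowest GC content of the 42, 37.4%. Over the 42 genes, Spearman's rho of this shift with GC content was -0.60 and Pearson's r was -0.61. For replicate 2 over replicate 1 they were 0.54 and 0.60. Over the 8364 protein-coding genes at or above 10 TPM, rho was -0.50 and 0.52. These correlations are across genes of the same 3 libraries, which are not independent replicates, and the part of GC content in the shifts was not tested.

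**Figure D4:**
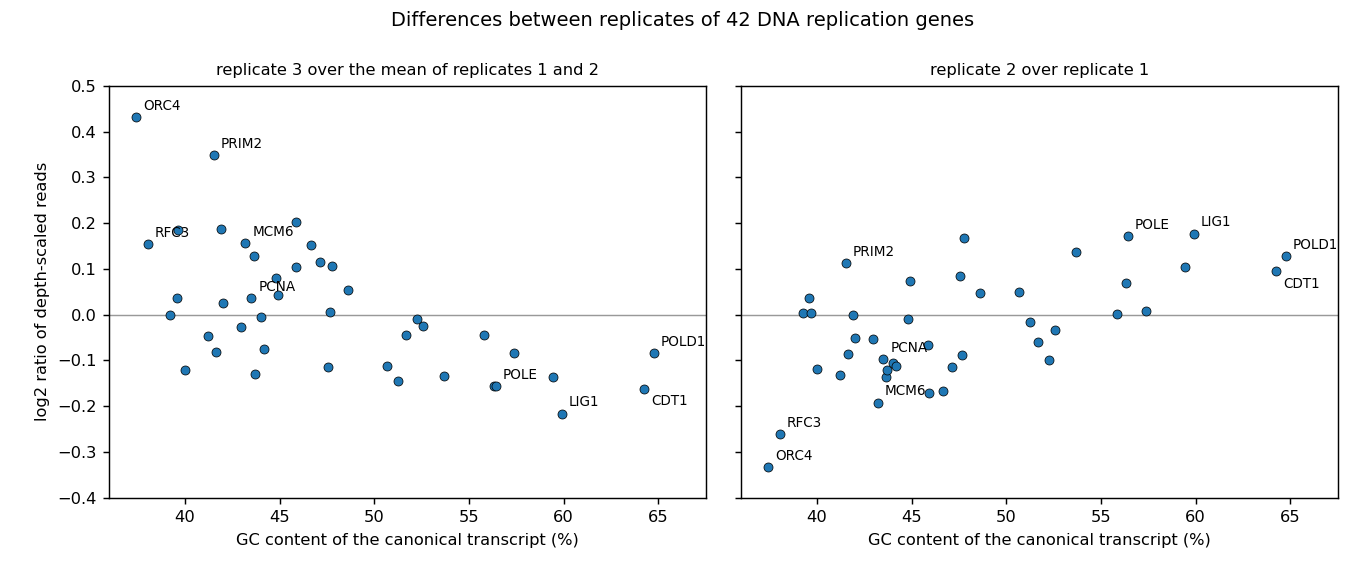
Log2 ratio of scaled reads (vertical axes) against the GC content of the canonical transcript in percent (horizontal axes) for the 42 genes, 1 point per gene. The left panel shows replicate 3 over the mean of replicates 1 and 2 and slopes down, from ORC4 at 0.43 to LIG1 at -0.22. The right panel shows replicate 2 over replicate 1 and slopes up.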

How the data were processed

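RNA was measured in 3 replicates of 1 group. By the study's methods, libraries came from a KAPA RNA HyperPrep kit with RiboErase, and reads were mapped to hg38 and counted with Seq2science. The submitters' processing notes name STAR, fastp, MultiQC, hg38 and GRCh38.p14. Which annotation was used, and whether counting was stranded, is not given in the sources used here. The authors deposited TPM values of 62754 genes, scaled to 1000000 per replicate, which were used as they are.

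GENCODE release 44 held 62700 of them by identifier. Reads were recovered from TPM and the length of the longest transcript less a base per exon. Samples were grouped by their labels, and all were kept. Levels are means and SDs of TPM. Ratios were taken within replicates on the log2 scale, and a pair was called ordered where all 3 replicates had the same sign and the mean was beyond the SD. An exact sign-flip permutation test was run beside it. Complex means are geometric. Reads were compared between replicates by chi-square tests with median-of-ratios size factors over 13040 genes and adjustment over 12359 genes. Base sharing was computed over canonical transcripts on the same strand. Floors were 3 reads.

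The 42 genes and all lists were chosen with earlier results of these data known. All 42 genes are named, with the highest, the lowest and every gene below 1 TPM of each group of the 43 further replication genes. Alternatives were other lengths, rescaling to protein-coding genes, medians, other read minimums and leaving out each replicate. Scripts were tested on simulated data. Planned comparisons of protein sequence were not run. Software was scipy 1.17.1, numpy 2.4.6, matplotlib 3.10.9 and pandas 2.3.3 under Python 3.11.15.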

Additional observations from a re-analysis of the deposited data

How the results depend on the processing

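No analysis paired between groups was possible because only 1 group was measured, and ratios between genes were paired within replicates. The count of genes at or above 1 TPM was 42 under every alternative run. Leaving out a replicate, or taking the median, moved no gene's level beyond its SD, but with 3 values neither step could do so. The canonical length moved 32 of the 42 levels beyond the SD and the union of exons 29. The unshared canonical length moved 34 and rescaling to protein-coding genes 33. Each change of length also rescaled all genes by a common factor, so part of these counts is not due to a gene's own length. MCM2, whose longest transcript has the canonical length, as in 15 of the 42 genes, went from 158 to 129 TPM with the canonical length. The median level was 52.8 TPM with the canonical length and 68.8 TPM when protein-coding genes were rescaled to the same total. The log2 ratios of the highest to the lowest subunit moved mainly with gene length. With the canonical length they were 1.28 for MCM2-7, 1.04 for MCM8-MCM9, 0.70 for GINS, 0.65 for RFC, 2.21 for polymerase alpha-primase and 2.42 for polymerase delta. With the union of exons they were 2.0 for MCM2-7, 0.18 for MCM8-MCM9, 1.41 for GINS, 2.75 for polymerase alpha-primase, 0.63 for polymerase delta, 1.09 for polymerase epsilon and 1.69 for RPA. On unshared bases, an alternative added after the data were seen, they were 1.28 for MCM2-7, 0.70 for GINS, 0.65 for RFC, 1.52 for polymerase alpha-primase and 2.23 for polymerase delta. With the further subunits, the ratios were 7.33 for polymerase delta (POLD2 to POLD4) and 2.64 for polymerase epsilon (POLE3 to POLE2). With medians that of RPA was 1.30. The log2 ratio of POLE to POLD1 turned to -0.035 with the union and -0.088 on unshared bases, and that of RFC1 to RFC2-5 to -0.026 with both canonical lengths. The log2 ratio of PRIM1 to PRIM2 ranged from -0.14 to 0.041 when a replicate was left out, turned positive without replicate 3, and was 0.18 with the canonical length, 0.26 with the union and 0.67 on unshared bases. The number of genes whose reads differed between replicates was 5 to 14 when a replicate was left out, lowest without replicate 2 (10.2% of protein-coding genes called) and 9 without replicate 3 (22.5%), and fewer libraries give this test less power. It was 35 under equal TPM (62.0% called). The number lowest in replicate 3 was 37 in TPM as deposited. Depth limits POLD4, GMNC and RPA4, and also RNASEH2A (5, 12 and 5 reads) and CHTF8 (11, 16 and 21 reads), whose means are just above 1 TPM with intervals that reach below it. The 42 genes had at least 148 reads.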
